A study of Mus musculus with 6 samples.

Results

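The genes described here are those of bone morphogenetic protein (BMP) and transforming growth factor beta (TGF-beta) signalling, chosen as a fixed list of 43 gene symbols looked up in the annotation of the array. Probe sets assigned to 1 gene were found for 42 of the 43, out of 18193 genes so represented, and Bmp3 was not analysed here. A probe set is a group of short probes that together read 1 transcript, and the 42 genes were read by 93 of them. By role the 42 genes were 12 ligands, 8 secreted antagonists, 3 genes of ligand latency or processing, 11 receptors and 8 Smads. Gene expression had been profiled on Affymetrix mouse 430_2 arrays to find genes selective for brown or white fat. The brown group was interscapular brown adipose tissue and the white group was epididymal white adipose tissue, with 3 arrays each. The tissues came from 3 male C57BL/6 mice, aged 10 to 12 weeks, untreated and kept at ambient temperature, and the labels name no transgene or deletion. Whether a replicate number marks the same mouse in both tissues is not stated, so p-values measure the spread among these samples. Each tissue was taken from a single site of the body, so the kind of fat and its site cannot be told apart.

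In this pathway, secreted ligands bind pairs of type I and type II receptor kinases, which phosphorylate Smad proteins that then enter the nucleus with Smad4. BMPs act mainly through Smad1, Smad5 and Smad9, while TGF-betas and activins act mainly through Smad2 and Smad3. Secreted antagonists trap the ligands, latent TGF-beta binding proteins hold TGF-beta inactive in the matrix, and Smad6 and Smad7 inhibit the pathway from within. In fat, BMP4 is known for committing precursors to the white lineage, BMP7 for brown adipocyte formation, and TGF-beta with Smad3 for restraining adipocyte differentiation.

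The labelled tissues matched their defining markers. The 5 brown adipocyte markers, Ucp1 among them, were all higher in brown, and the 5 white adipocyte markers, Lep among them, were all higher in white. The arrays differed in overall brightness, with a median deposited signal of 37.6 to 39.4 in brown and 52.1 to 52.5 in white, and 35.6% to 37.5% against 45.2% to 45.8% of probe sets called present. A present call means that the perfect-match probes of a set exceeded their mismatch partners beyond a detection threshold. Signals given below are normalised array signals in arbitrary units, and every difference is brown minus white on the log2 scale. The authors also deposited a table of the whole series, whose columns run opposite to the array files. Each of its 6 columns correlated best with the array of the other tissue carrying the same replicate number, at 0.840 to 0.874 against 0.778 to 0.794 for arrays of the tissue in its name. Directions in the text follow the array files and are therefore opposite to those of that table as named.

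Genes of the pathway were mostly higher in white fat. Of the 42 genes, 35 passed the detection filter and were tested. In limma, 26 of the 35 were higher in white, 1 was higher in brown and 8 were not called at an adjusted p of 0.05. Among all 10264 genes tested, 32.7% were higher in white, 28.2% were higher in brown and 61.0% were called in either direction. The median difference of the tested members was -0.88, beside -0.04 over all genes. The filter, a present call on at least 3 of the 6 arrays, was passed through white alone by 8 members, whose chosen probe set was called absent on all 3 brown arrays. These were Bmp4, Tgfb2, Tgfb3, Chrd, Chrdl1, Bmp1, Ltbp1 and Smad1, although other probe sets of Tgfb2, Chrdl1 and Smad1 were called present on some brown arrays. For such a probe set the text gives the difference as at least a fold, taken between means of log2 signals, with each brown array at its own signal or at its lowest present signal if that was higher. Except for Ltbp1 the brown signals lay above that floor, so the fold equals the fitted one and moves with the scatter of background signals. Leaving out a brown array can therefore give a smaller fold than the one stated. With 64 signal units added, which damps such scatter, the differences of Tgfb2, Tgfb3 and Chrd were -0.87, -1.49 and -1.02. Those of Chrdl1, Bmp1 and Ltbp1 were -2.63, -1.59 and -1.57, and that of Bmp4 was -0.58, short of 2-fold. All of these were called by limma. Among the other 27, present on at least 1 array of each tissue, 18 were higher in white and 1 was higher in brown.

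**Figure D1:**
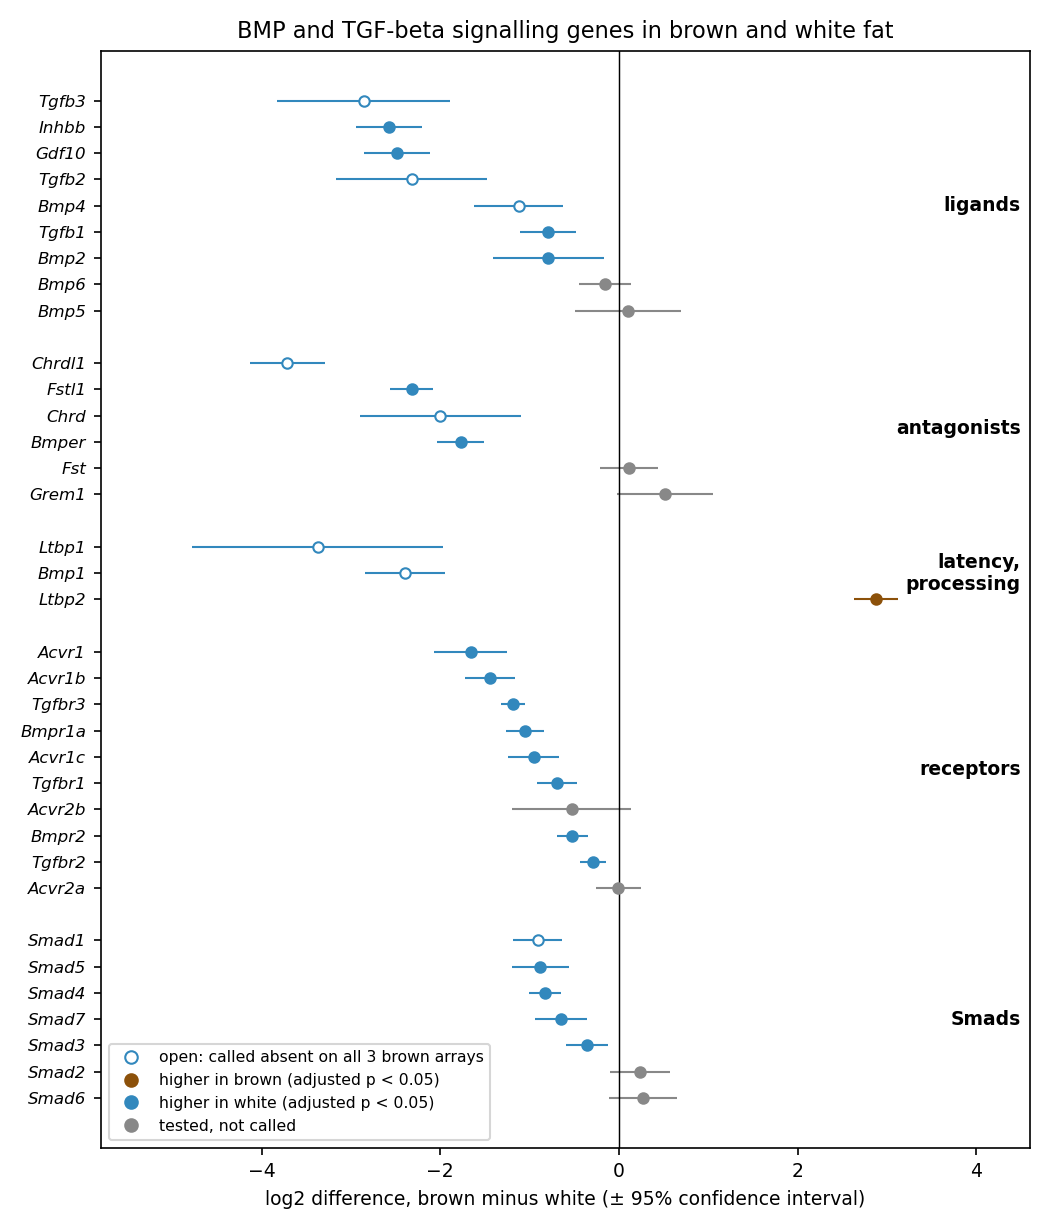
Log2 difference, brown minus white, with its 95% confidence interval, for the 35 tested genes grouped by role. Open circles mark the 8 genes whose probe set was called absent on all 3 brown arrays. The 26 genes called higher in white lie left of 0 in every role, and Ltbp2 at 2.88 is the 1 gene called higher in brown.

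The direction of the member counts held under the other scalings of the array files. With the deposited scaling 30 members were higher in white and 1 in brown, with spike-in scaling 29 and 1, and with median centring 25 and 1. Over all genes the split moved far more, from 2895 higher in brown and 3361 in white to 1535 and 5758 with the deposited scaling and 1380 and 5226 with spike-in scaling. The median difference of all genes was then -0.50 and -0.48, and -0.05 with median centring.

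Many markers of other cells also differed between the tissues. All 11 mesothelial markers tested were higher in white, with a summed signal of 325 to 399 on the brown arrays and 3211 to 3589 on the white arrays, and Msln, Upk3b, Upk1b, Krt8, Krt19, Gpm6a, Bnc1 and Muc16 were called absent on all 3 brown arrays. All 9 macrophage markers were higher in white (2893 to 3404 against 18686 to 19472), as were 8 of 9 fibroblast and progenitor markers (9609 to 10224 against 37341 to 38220), the ninth, Pi16, not being called. Of 8 endothelial markers 5 were higher in white (2391 to 2549 against 3410 to 3492) and 3 were not called. Smooth muscle and pericyte markers were split, with 4 higher in white and 2 in brown of 6, and 2 of 3 Schwann cell markers were higher in brown. Of skeletal muscle and of epididymal epithelium 1 marker each was tested, and neither was called. The part of these cells in the differences of the pathway genes was not tested. In whole tissue, fewer cells of a type and less RNA per cell cannot be told apart.

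Among the ligands, 7 of 9 tested were higher in white and 0 in brown, with 2 not called, beside 32.7% and 28.2% of all genes tested. Their median difference was -1.12, but Bmp4, Tgfb2 and Tgfb3 among them passed the detection filter through white alone. Tgfb3, a TGF-beta isoform, gave 28.2, 58.7 and 13.7 on the brown arrays, all called absent, and 215, 178 and 226 on the white arrays. It was at least 7.25-fold higher in white (limma adjusted p = 0.000256). Its difference of -2.86 lay between -3.39 and -2.34 when each array was left out. Tgfb2, another isoform, gave 30.4, 10.2 and 17.6 in brown, also all absent, and 87.8, 85.4 and 90.8 in white, at least 4.99-fold higher (adjusted p = 0.000436). Leaving out each array moved its difference of -2.32 to between -2.72 and -1.94. For both isoforms the brown arrays scattered widely at background while the white arrays lay close together. Tgfb1, the isoform most studied in fibrosis and immune regulation, differed less, with 182 ± 24.7 in brown and 316 ± 37.0 in white (SD, n = 3), a difference of -0.80 (adjusted p = 0.000717). By these probe sets all 3 TGF-beta isoforms were higher in white. They showed no overlap between tissues, as did 67.3% of all genes tested. Passing the filter through white alone, as Tgfb2 and Tgfb3 did, favours such a separation. Of the other tested probe sets of Tgfb2, 1 was called higher in white (at least 4.34-fold) and 1, present on 2 brown arrays, overlapped and was not called (-0.95, adjusted p = 0.077 over probe sets).

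Inhbb, which encodes the beta B subunit of activins and inhibins, gave 43.3, 55.9 and 44.5 in brown and 323, 268 and 265 in white. It was present on all 6 arrays, and its difference of -2.58 ± 0.16 (SE) corresponded to 5.97-fold (adjusted p = 5.15e-07). Gdf10, also called BMP3b, gave 56.9, 88.3 and 73.2 in brown and 382, 408 and 415 in white, a difference of -2.49 ± 0.17 (SE; adjusted p = 7.31e-07). By these probe sets the lowest white array of both genes stood well above the highest brown array, while tissues did not overlap in 67.3% of all genes tested. The other probe set of Inhbb was absent on all 6 arrays, was not tested and overlapped (-0.29). Bmp4 gave 42.6, 42.4 and 58.4 in brown, called absent throughout, and 95.6, 127 and 89.8 in white, at least 2.18-fold higher (adjusted p = 0.00151).

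Bmp2, a close relative of Bmp4, had 26.2 ± 2.93 in brown and 45.6 ± 6.73 in white (SD, n = 3). Its difference of -0.79 was called at an adjusted p of 0.0309, but leaving out replicate 2 (0.0553) or 3 (0.0588) of brown, or replicate 2 (0.111) or 3 (0.108) of white, ended the call, as did the fit with the replicate number as a block (0.0658) or with no detection filter (0.0882). Over all alternatives its adjusted p ranged from 2.71e-05 to 0.111. Bmp6, known for its part in iron regulation, had overlapping arrays, at 192 ± 24.8 and 213 ± 11.2 (SD, n = 3). Its difference of -0.16, with a 95% confidence interval from -0.45 to 0.14, was not called (adjusted p = 0.329), though it was with the deposited scaling (-0.69). Bmp5 was also not called, at 0.10 with an interval from -0.49 to 0.69.

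Bmp7, Gdf5 and Inhba were called absent on all 6 arrays and were not tested. Gdf5 gave 91.2, 74.0 and 53.6 in brown and 9.03, 6.89 and 8.10 in white, values that did not overlap although none was called above background. The brightest probe set of Bmp7 gave 38.6 to 49.4 in brown and 59.4 to 86.6 in white, and the 2 probe sets of Inhba were at 26.9 and 12.9 on average in brown and 33.4 and 6.46 in white. None of these signals was above background, so no fold is stated for these genes.

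**Figure D2:**
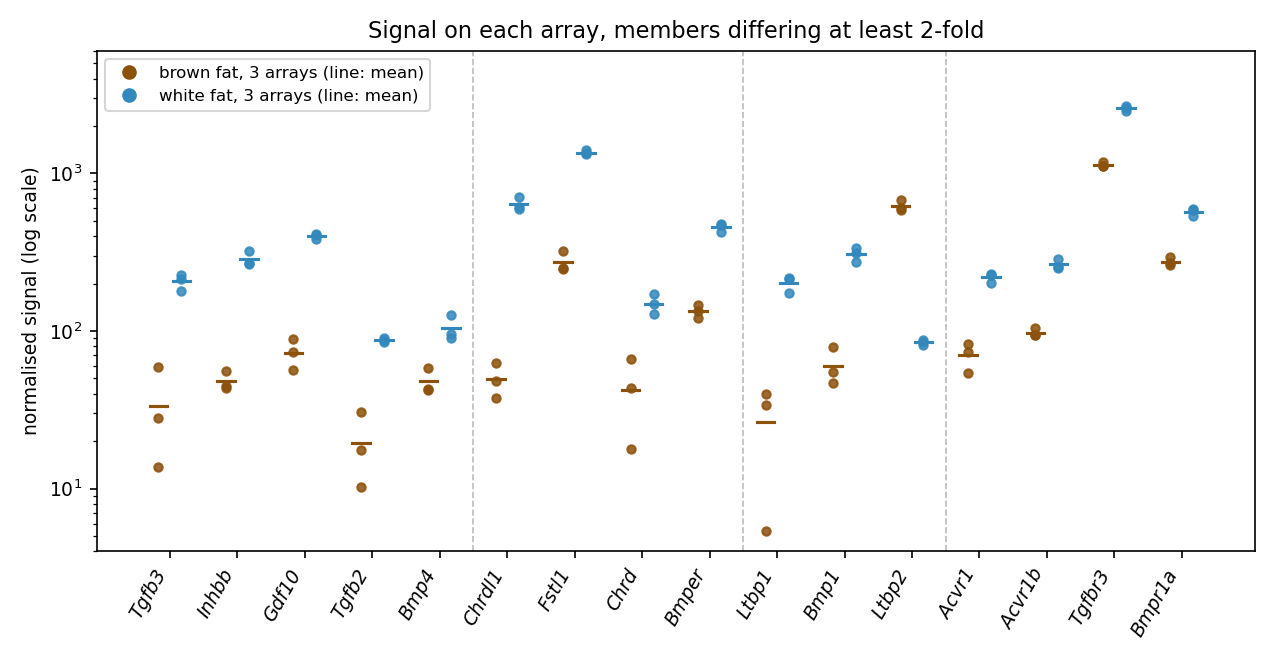
Normalised signal on each of the 3 brown and 3 white arrays, on a log axis, for the 16 genes called with a difference of at least 2-fold, with a line at each mean. White points lie above brown points in 15 genes and below them in Ltbp2. The 16 were chosen by their call and size of difference, which favours the lack of overlap seen in all of them. Tissues did not overlap in 67.3% of all genes tested.

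Of the secreted antagonists, 4 of 6 tested were higher in white and 0 in brown, beside 32.7% and 28.2% of all genes tested. Their median difference was -1.89, but Chrd and Chrdl1 among them passed the detection filter through white alone. Chrdl1 (chordin-like 1), which binds BMPs and keeps them from their receptors, gave 37.5, 48.0 and 63.0 in brown, called absent, and 609, 708 and 593 in white, at least 13.1-fold higher (adjusted p = 9.46e-08). Its other 3 probe sets were also called, with differences of -4.19 and -4.37 and, for the one absent on all brown arrays, at least 26.8-fold. Its relative Chrd (chordin) was also absent in brown, at 17.9, 66.1 and 43.3, and gave 128, 171 and 148 in white, at least 3.99-fold higher (adjusted p = 0.00178). The Chrd difference of -2.00 lay between -2.43 and -1.48 when each array was left out.

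Fstl1 (follistatin-like 1), a secreted glycoprotein of connective tissue that can bind ligands of this family, gave 322, 248 and 251 in brown and 1338, 1407 and 1325 in white. Its difference was -2.32 ± 0.11 (SE; adjusted p = 5.71e-08), and its second probe set gave -2.11. Bmper, a BMP binding endothelial regulator with chordin-like repeats, gave 134.5, 147 and 121 in brown and 423, 480.0 and 472 in white (-1.77 ± 0.12, SE; adjusted p = 6.62e-07). Both genes were present on all 6 arrays. They showed no overlap between tissues, as did 67.3% of all genes tested.

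Follistatin (Fst), which neutralises activins, was read differently by its probe sets. The brighter one gave 161 ± 13.9 in brown and 149 ± 19.0 in white (SD, n = 3), was not called (0.12, 95% confidence interval from -0.21 to 0.44), and turned to -0.43 and a call towards white with the deposited scaling. The dimmer one gave 35.9 ± 4.10 and 70.3 ± 6.05 and was called higher in white (-0.97; adjusted p = 0.00399 over probe sets). Gremlin 1 (Grem1), an antagonist of BMP2 and BMP4, had 64.6, 73.4 and 79.3 in brown and 68.2, 43.4 and 43.6 in white, with the highest white array inside the brown range. Its difference of 0.51 was not called (adjusted p = 0.088), but was called higher in brown without white replicate 1 (0.72, adjusted p = 0.0282; range over all alternatives 0.0282 to 0.923). Noggin (Nog) and Fstl3 were called absent on all 6 arrays, Fstl3 at 6.92 to 12.4 in brown and 54.7 to 94.0 in white.

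The 3 genes of latency and processing were all called, 2 higher in white and 1 in brown, beside 32.7% and 28.2% of all genes tested. Bmp1 and Ltbp1, the 2 towards white, passed the detection filter through white alone. Ltbp2, an extracellular matrix protein related to the latent TGF-beta binding proteins but known for binding fibrillin rather than TGF-beta, gave 676, 589 and 607 in brown and 85, 81.9 and 87.2 in white. It was 7.35-fold higher in brown, a difference of 2.88 ± 0.11 (SE; adjusted p = 1.40e-08), and its difference stayed between 2.21 and 2.91 over the alternatives that keep the direction of the array files. Ltbp1, which holds TGF-beta in its latent complex, gave 5.41, 33.9 and 39.6 in brown, called absent, and 175, 216 and 214 in white, at least 9.61-fold higher (adjusted p = 0.00104). Its brown replicate 1 was far below the others, and without it the difference was -2.46 (adjusted p = 6.92e-06). Bmp1 is not a ligand but a protease that cuts procollagen and chordin. It gave 46.5, 78.7 and 54.5 in brown, called absent, and 276, 338 and 313 in white, at least 5.27-fold higher (adjusted p = 3.56e-06), and its second tested probe set, also absent in brown, was at least 3.92-fold higher.

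Because Ltbp2 and Ltbp1 are related genes that ran in opposite directions, the 250 bases before their start sites are printed 5′ to 3′ from the RefSeq promoter table (GRCm38.p6), which held 30 of the 43 genes. Ltbp1 has 2 start sites there. Capitals mark CAGAC, the box bound by Smad3 and Smad4, and GGCGC, a GC-rich Smad motif, on either strand, and no copies overlap.
Ltbp2 (chr12:84876492-84876741, minus strand): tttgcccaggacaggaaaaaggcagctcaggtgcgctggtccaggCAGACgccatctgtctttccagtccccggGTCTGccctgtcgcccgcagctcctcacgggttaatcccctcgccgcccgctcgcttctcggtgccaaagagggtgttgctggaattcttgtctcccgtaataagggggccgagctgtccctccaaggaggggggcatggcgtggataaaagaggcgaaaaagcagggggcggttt
Ltbp1 upstream start (chr17:75005279-75005528, plus strand): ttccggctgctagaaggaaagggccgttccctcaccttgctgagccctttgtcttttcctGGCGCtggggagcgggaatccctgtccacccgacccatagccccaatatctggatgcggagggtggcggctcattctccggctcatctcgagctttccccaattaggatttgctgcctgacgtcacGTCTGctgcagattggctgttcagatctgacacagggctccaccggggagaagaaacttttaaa
Ltbp1 downstream start (chr17:75178531-75178780, plus strand): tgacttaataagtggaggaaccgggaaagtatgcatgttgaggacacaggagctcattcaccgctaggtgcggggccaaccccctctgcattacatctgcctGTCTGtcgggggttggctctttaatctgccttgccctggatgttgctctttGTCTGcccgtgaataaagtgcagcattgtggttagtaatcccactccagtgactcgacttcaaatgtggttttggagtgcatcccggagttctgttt
The Ltbp2 window held 2 copies of CAGAC and 0 of GGCGC, with a GC content of 61.6%. The upstream Ltbp1 window held 1 of each at 56.8% GC, and the downstream one 2 of CAGAC and 0 of GGCGC at 50.8% GC. CAGAC occurred in 42.2% of all 32851 windows of this length and in 16 of the 37 windows of member genes. GGCGC occurred in 32% of all windows and in 23 of the 37. These letters describe the windows and do not show binding, and the windows of both genes held the Smad3 and Smad4 box.

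Receptors were higher in white in 8 of 10 tested cases and in brown in 0, beside 32.7% and 28.2% of all genes tested. Their median difference was -0.82. None of the tested receptors was absent on all 3 brown arrays, unlike some tested ligands and antagonists, so the medians do not rank the roles. Among type I receptors, Acvr1 (ALK2) gave 83.2, 73.4 and 54.1 in brown and 202, 225 and 229.5 in white (-1.66 ± 0.18, SE; adjusted p = 2.53e-05). Its other probe sets, each present on only 1 array, a white one, were not tested and overlapped (-0.04 and 0.58). Acvr1b (ALK4), an activin receptor, gave 104, 94.1 and 93.9 in brown and 252, 256 and 286 in white (-1.44 ± 0.13, SE; adjusted p = 5.10e-06). Bmpr1a (ALK3), a main BMP receptor of adipocytes and their precursors, gave 264, 294 and 269 in brown and 588, 533 and 592 in white (-1.05 ± 0.09, SE; adjusted p = 6.18e-06). By these probe sets every white array lay above every brown array in each of the 3 receptors, while tissues did not overlap in 67.3% of all genes tested.

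The size of the Bmpr1a difference depended on the probe set. Of its 5 tested probe sets, 2 were called higher in white (-1.05 and -0.28) and 3 were not called (-0.50, -0.36 and 0.56). Acvr1c (ALK7), an adipocyte receptor for activin B and other ligands, gave 365, 382 and 347 in brown and 651, 619 and 867 in white (-0.95), and its other probe sets gave -0.71 and -1.34, both called. Tgfbr1 (ALK5) differed by -0.69, but the mean over its probe sets was not called (-0.32, adjusted p = 0.158; range over all alternatives 3.40e-06 to 0.158). Bmpr1b (ALK6) was called present on only 1 array, a white one, and was not tested.

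Betaglycan (Tgfbr3), the co-receptor that presents TGF-beta2 and binds inhibin, gave 1114, 1182 and 1118 in brown and 2690, 2495 and 2600 in white. The difference was -1.19 ± 0.06 (SE; adjusted p = 9.04e-08), and its dimmer probe set was not called (-0.52). Among type II receptors, Bmpr2 gave 831 ± 57.0 and 1194 ± 57.7 (-0.52), and Tgfbr2 1073 ± 41.1 and 1310 ± 22.2 (SD, n = 3; -0.29). Tgfbr2 was not called with median centring (-0.13, adjusted p = 0.14) nor Bmpr2 with the mean of its probe sets (-0.15, adjusted p = 0.247). Their adjusted p values ranged from 1.18e-05 to 0.14 and from 7.83e-07 to 0.247 over all alternatives. The activin receptor Acvr2a gave 336 ± 22.6 and 339 ± 36.1, a difference of -0.01 with a 95% confidence interval from -0.26 to 0.24, and was not called (adjusted p = 0.953), though it was with the deposited scaling (-0.48) and spike-in scaling (-0.47). Acvr2b was not called at -0.53 (interval from -1.20 to 0.14), and was with those scalings (-0.99 and -0.98).

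The Smads had a median difference of -0.65, with 5 of 7 tested higher in white and 0 in brown, beside 32.7% and 28.2% of all genes tested. Differences past 2-fold were called in 0 Smads, beside 25.3% of all genes tested. The chosen probe set of Smad1 passed the detection filter through white alone. Both tested Smads of the BMP branch were higher in white. Smad1 gave 167, 189 and 187 in brown, called absent, and 315, 321 and 387 in white, at least 1.88-fold higher (adjusted p = 0.000107). Its other probe sets, present on at least 1 brown array, gave -1.24 and -1.53, both called. Smad5 gave 146, 139 and 175 in brown and 311, 292 and 244 in white (-0.88; adjusted p = 0.000402), and its second tested probe set was not called (-0.20). Smad9 was called present on none of the arrays.

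In the TGF-beta branch, Smad3 was higher in white by -0.36 (241 ± 16.2 against 310 ± 14.9, SD, n = 3; adjusted p = 0.0132), a call lost without white replicate 2 (adjusted p = 0.053) and with the mean of its probe sets (adjusted p = 0.352), within a range from 4.68e-05 to 0.352. Smad2 gave 334, 244 and 244 in brown and 258, 217 and 217 in white, overlapping values with a difference of 0.24 that was not called (95% confidence interval from -0.10 to 0.57) and became -0.27 with the deposited scaling. The shared partner Smad4 gave 498, 459 and 521 in brown and 884, 857 and 881 in white (-0.83; adjusted p = 9.48e-06), and its other probe sets gave -0.48, called, and -0.24, not called. The inhibitory Smads were not alike in their calls. Smad7 was higher in white (-0.65; adjusted p = 0.0017) while Smad6 was not called at 0.27, with 315, 250 and 313 in brown and 313, 207 and 218 in white. Smad6 was called higher in brown without white replicate 1 (0.46, adjusted p = 0.0245) and lay at -0.24 with the deposited scaling, where it was not called, and whether Smad6 and Smad7 differ from each other was not tested.

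**Figure D3:**
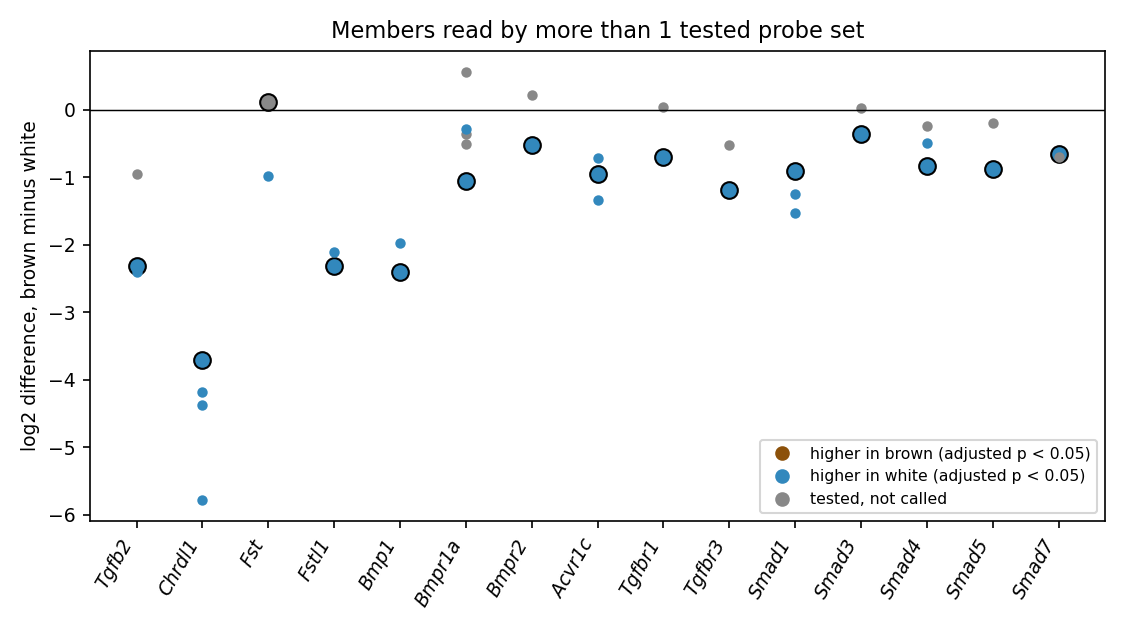
Log2 difference, brown minus white, of each tested probe set for the 15 genes read by more than 1, with the brightest probe set of each gene outlined. No gene has probe sets called in opposite directions, and in 10 of the 15 a called probe set stands beside 1 or more that were not called.

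Across probe sets, 59 of the 93 were tested, of which 39 were higher in white, 1 in brown and 19 were not called, where 54.5% of all 19819 probe sets tested were called. Of the 15 genes with more than 1 tested probe set, 5 had every one called in the same direction (Chrdl1, Fstl1, Bmp1, Acvr1c and Smad1), 0 had calls in opposite directions and 10 had called beside uncalled probe sets. In 27 of the 35 tested genes no brown array lay within the white range or the reverse, beside 67.3% of all genes tested. All 8 members that passed the detection filter through white alone are among them, and passing in that way favours such a separation. Differences of at least 2-fold were called in 16 members, 15 towards white and 1 towards brown, beside 25.3% of all genes tested. Of the 15, Bmp4, Tgfb2, Tgfb3, Chrd, Chrdl1, Bmp1 and Ltbp1 passed the filter through white alone, with brown signals at background. Those 16 held 5 ligands, 4 antagonists, 3 genes of latency or processing and 4 receptors.

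Other genes of the pathway, from lists chosen by role, gave 48 tested genes, of which 25 were higher in white and 10 in brown. Their median difference was -0.63, and 72.9% were called in either direction. Nbl1, Twsg1, Thbs1, Id4, Ctgf, Cdkn2b and Snai2 passed the detection filter through white alone, and all but Snai2 were called higher there. Junb passed it through brown alone and was called higher in brown. Among all genes tested 32.7% were higher in white, 28.2% in brown and 61.0% called in either direction. Of 10 other extracellular regulators tested, 8 were higher in white and 1 in brown. Htra3, a secreted protease that can bind TGF-beta family ligands, had 395 ± 24.5 in brown and 1900 ± 55.2 in white (SD, n = 3; -2.27), and Ltbp4, another latent TGF-beta binding protein, 269.8 ± 23.8 and 1102 ± 50.6 (-2.03). The BMP antagonist Nbl1 was at least 5.94-fold higher in white, being absent on all brown arrays, and the protease Htra1 differed by -1.71. The Nbl1 fold equals the fitted one and moves with the scatter of background signals. The proprotein convertase Furin, which cuts TGF-beta precursors, was called higher in brown (0.35; adjusted p = 0.0152), a direction that turned with the deposited scaling (-0.10) and spike-in scaling (-0.08). Of 15 other ligands on the array 1 was tested, Gdf9, and it was not called (0.07).

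Of 6 other receptors and co-receptors tested, 4 were higher in white and 0 in brown, beside 32.7% and 28.2% of all genes tested. Endoglin (Eng), a TGF-beta co-receptor of endothelium, had 359 ± 73.0 in brown and 694 ± 35.0 in white (SD, n = 3; -0.97). Neo1 (-0.78), Amhr2 (-0.73) and Acvrl1 (-0.60) were also higher in white. Neo1 was not called without probe sets prone to cross-hybridisation (-0.10), Acvrl1 not when replicate 2 (-0.43) or 3 (-0.57) of brown or replicate 2 (-0.60) or 3 (-0.57) of white was left out, and Amhr2 not when white replicate 1 (-0.68) or 3 (-0.67) was left out. Of the 8 endothelial markers 5 were higher in white and 3 (Kdr, Tek and Emcn) were not called, beside 61.0% of all genes tested called in either direction. The part of endothelial cells in the Eng and Acvrl1 differences was not tested.

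Intracellular modulators were split, with 4 of 15 tested higher in brown and 7 in white, beside 28.2% and 32.7% of all genes tested. Skil (SnoN), a repressor of Smad target genes, had 688 ± 45.1 in brown and 379.9 ± 35.7 in white (SD, n = 3; 0.86, limma adjusted p = 3.83e-05). Its relative Ski ran the other way, at 359 ± 35.1 and 693 ± 57.3 (-0.95; adjusted p = 2.41e-05). Nedd4l, a ubiquitin ligase that acts on activated Smads, was higher in brown (0.97), while the ligases Smurf1 (-0.85) and Smurf2 (-0.64) were higher in white, as were the type I receptor binding protein Fkbp1a (-1.04) and the phosphatase Ctdspl (-1.15). Strap (0.48) and Pmepa1 (0.28), both inhibitors of TGF-beta signalling, were called higher in brown. With the deposited scaling neither was called, at 0.06 and -0.04, and with spike-in scaling they were at 0.07 and -0.03.

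Target genes were split as well, with 5 of 16 tested higher in brown and 6 in white, near the 28.2% and 32.7% of all genes tested. Of the 6, Id4, Ctgf and Cdkn2b passed the detection filter through white alone, and of the 5, Junb passed it through brown alone. The Id genes, inhibitors of differentiation induced by BMPs, did not run together. Id1 had 684 ± 87.1 in brown and 442 ± 40.3 in white (SD, n = 3; 0.63, adjusted p = 0.000925), and Id2 had 186 ± 31.2 and 108 ± 12.2 (0.78, adjusted p = 0.00214). Id3 had 354 ± 34.2 and 1165 ± 93.2 (-1.72, adjusted p = 2.32e-07), and Id4, absent in brown, was at least 1.70-fold higher in white. Neither Id1 (0.21 and 0.22) nor Id2 (0.23 and 0.24) was called with the deposited or spike-in scaling, and Id2 was not called with the mean of its probe sets (0.45).

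Of targets linked to TGF-beta, the matrix genes Tgfbi (-2.09) and Col1a1 (-1.87) were higher in white. Ctgf, a matricellular protein, was at least 6.18-fold higher and the cell cycle inhibitor Cdkn2b at least 10.3-fold higher in white, both absent in brown. Both folds equal the fitted ones and move with the scatter of background signals. The Cdkn2b difference turned to 0.09 in the deposited series table with its tissues exchanged. Cdkn1a, another cell cycle inhibitor (1.35), the transcription factor Junb (1.85) and the matricellular Cyr61 (0.42) were higher in brown. In white, Junb was called present on 0 arrays and Cdkn1a on 1. Of the 9 fibroblast and progenitor markers 8 were also higher in white, and their part in the Col1a1 and Tgfbi differences was not tested.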

How the data were processed

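RNA from 3 brown and 3 white adipose samples was hybridised to 1-colour Affymetrix arrays. The authors deposited 1 file per array with a signal intensity per probe set on a linear scale, a detection call and a detection p-value. The authors also deposited a series table of signal intensity. For its scaling and for the software version, the sources used here give nothing.

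Here 64 control probe sets were left out of 45101, signals of 0 were set to 0.1, and log2 signals were quantile normalised. The 19819 probe sets with a present call on 3 or more of 6 arrays were fitted in limma 3.58.1 (R 4.3.3; eBayes with trend, two-sided). Each gene was read by its brightest tested probe set, and p-values were adjusted by Benjamini-Hochberg over 10264 genes, with a threshold of 0.05. Of 45037 probe sets, 34945 had 1 gene symbol, 932 several and 9160 none, and only the first were named. The script was tested on simulated data. For a gene absent on all 3 arrays of a tissue, the difference is given as at least the fold, between means of log2 values, of the brighter tissue over the higher of each array's lowest present signal and the gene's own signal. Where the gene's own signals were the higher, this is the fitted fold and moves with the scatter of background signals. The number of arrays limits the precision.

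Members with a called difference of at least 1 on the log2 scale were described on each array, the others by mean and SD or by array. Members and lists were chosen with earlier results of these data known. Alternatives covered scaling, the detection filter, an offset of 64, the choice of probe set, the trend, the replicate number as a block, leaving out each array, and the series table. Its use with the tissues exchanged was chosen after seeing the data.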

Additional observations from a re-analysis of the deposited data

How the results depend on the processing

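Counts of members higher in white stayed between 24 and 26, and those higher in brown between 1 and 3, when each array was left out, with the antagonists and the Smads each at 0 to 1 in brown. Grem1 and Smad6 were added to brown without white replicate 1. Without a detection filter 2 members were higher in brown, 1 of them a ligand (Gdf5). With only genes present on all 6 arrays, fewer members were tested and 17 were higher in white, of which 2 were ligands, 2 antagonists and 0 latency or processing genes. Same-numbered arrays did not deviate together (correlations of 0.0172, -0.0138 and -0.046), and with the replicate block 25 members were higher in white, with 2792 genes higher in brown and 3264 in white in all.

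With the series table's columns by name, 28 members were called towards brown and 2 towards white. By role these were 7 and 1 ligands, 5 and 0 antagonists, 2 and 1 latency or processing genes, 9 and 0 receptors, and 5 and 0 Smads. With its tissues exchanged, 2 members were higher in brown, 1 of them a ligand (Bmp5).

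Some differences changed sign, and the cause was not tested. With the deposited and spike-in scalings these were Bmp5 (-0.34 and -0.33), Fst (-0.43 and -0.41), Smad2 (-0.27 and -0.26), Smad6 (-0.24 and -0.23), Furin (-0.0959 and -0.0825) and Pmepa1 (-0.0401 and -0.0268). Fst was at -0.43 with the mean of its probe sets. With the table's tissues exchanged, Fst was at -0.89, Smad2 at -0.0904, Furin at -0.33, Strap at -0.19, Pmepa1 at -0.56 and Cdkn2b at 0.0880. Leaving out each array gave Bmp5 a range from -0.00806 (brown replicate 2) to 0.31, and took Acvr2a as low as -0.101 (white replicate 2) and turned it to 0.0286 and 0.00835 (replicates 1 and 3 of brown) and to 0.0265 and 0.0484 (replicates 1 and 3 of white). Signals near background limit what can be read for the 7 members not tested.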
